A study of Homo sapiens with 12 samples.

Results

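The UBE2 family comprises the ubiquitin-conjugating (E2) enzymes that carry ubiquitin, or a ubiquitin-like modifier, from an activating (E1) enzyme to a ligase. Genes were chosen by symbol, as UBE2 followed by 1 letter and optional digits, so pseudogenes, antisense transcripts and E2 enzymes with other names such as CDC34 are outside. This gives 34 of the 28278 genes in the count table, and 32 of the 15916 genes with enough counts to test. The RNA came from WA26 human embryonic stem cells (hESCs), wild type (WT) or with UBQLN1 knocked out (KO). KO cells were measured at normal O2, at 5% O2, or with N-acetylcysteine (NAC), and WT cells at normal O2. Each of these 4 groups has 2 libraries, with totals of 32591050 and 37650859 counts in WT, 35019694 and 39349967 in KO at normal O2, 41639350 and 32759193 in KO at 5% O2, and 40803323 and 31236968 in KO with NAC. Every pair of values below is in the order replicate 1, replicate 2.

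E2 enzymes differ in the linkage they build and in the ligases they serve. The UBE2D and UBE2E enzymes and UBE2W start chains with many ligases, while UBE2K, UBE2G1, UBE2G2 and UBE2R2 build K48-linked chains that direct proteins to the proteasome. UBE2C and UBE2S work with the anaphase-promoting complex, UBE2N with UBE2V1 or UBE2V2 makes K63-linked chains, and UBE2J1 and UBE2J2 sit in the membrane of the endoplasmic reticulum. UBQLN1 carries ubiquitinated proteins to the proteasome, downstream of these enzymes.

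UBQLN1 counts were 7382 and 7591 in WT, 1559 and 1789 in KO at normal O2, 2116 and 1530 in KO at 5% O2, and 2392 and 1476 in KO with NAC. All KO libraries are below both WT libraries, and in each of them some UBQLN1 transcript is still counted. Mean UBQLN1 was 209 ± 17.3 CPM (counts scaled to library size, mean ± SD, n = 2 libraries) in WT and 42.9 ± 0.85 in KO (n = 2), a log2 fold change of -2.29 (SE 0.12, adjusted p = 2.5e-06). This fold change lay between -2.37 and -2.20 over the alternatives tried. With NAC, UBQLN1 was 62.43 and 49.3 CPM against 42.25 and 43.45 CPM in KO at normal O2. It was called higher by edgeR's quasi-likelihood test (log2 fold change 0.38, SE 0.12, adjusted p = 0.0196). With the dependence on transcript length and GC content removed, that log2 fold change was -0.002. Which WT or KO clone is behind each library is not given in the sources used here, and clones of edited cells were picked, so a difference between WT and KO can include differences between clones. The study calls its replicates biological, but nothing in the labels says that they are separate cultures, so the p-values measure only the spread between these samples, which may be technical. In bulk samples, fewer cells expressing a gene and less RNA per cell cannot be told apart.

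Summed over the family, the level per transcript length was 4499 and 4527 TPM (counts divided by transcript length and scaled to the library) in WT and 4545 and 4532 in KO. It was 4451 and 4388 TPM at 5% O2 and 4443 and 4526 TPM with NAC, so with median transcript lengths the sum is nearly the same in all 8 libraries. Without division by length, the members summed to 3716 and 3739 CPM in WT, 3596 and 3628 in KO, 3888 and 3825 at 5% O2, and 4108 and 4104 CPM with NAC, highest with NAC and without overlap. The sum depends on the length used: group means with the median transcript length of each gene were 4513, 4539, 4420 and 4484 TPM for WT, KO, 5% O2 and NAC. With the MANE Select transcript, a choice made after seeing the data, the corresponding means were 3337, 3529, 3321 and 3186 TPM. Per length, UBE2S (mean 799 TPM in WT), UBE2D3 (602), UBE2C (284.5), UBE2N (273) and UBE2M (268) were the highest members. MANE Select lengths put UBE2C (534 TPM), UBE2S (412), UBE2D3 (227) and UBE2M (220.0) at the top, so the place of UBE2N among the highest depends on the length used. At the other end, UBE2U had 0 counts in all libraries, and UBE2L5 had 2 counts in WT replicate 2, 3 in KO replicate 2 and 0 in the others. Both were too low to test.

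By role, TPM of the broad chain initiators made up 24.2% and 22.7% of the family in WT, 22.4% and 22.4% in KO, 26% and 24.6% at 5% O2, and 28% and 28.9% with NAC. The share of the initiators is highest in the NAC libraries and lowest in KO at normal O2, and the groups do not overlap. UBE2C and UBE2S, the partners of the anaphase-promoting complex, held 22.9% and 25.1% of family TPM in WT, 24.5% and 24.7% in KO, 23.8% and 25.3% at 5% O2, and 20.3% and 19.3% with NAC. Their share is lowest with NAC, while the other 3 groups overlap. The K63 builder UBE2N with its partners took 7.88% and 7.57% in WT, 6.75% and 6.83% in KO, 8.19% and 7.56% at 5% O2, and 10.7% and 10.9% of family TPM with NAC. This share is also highest in the NAC libraries and lowest in KO at normal O2. These shares rest on median transcript lengths and would differ with other lengths. They describe the libraries and were not put to a test.

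**Figure D1:**
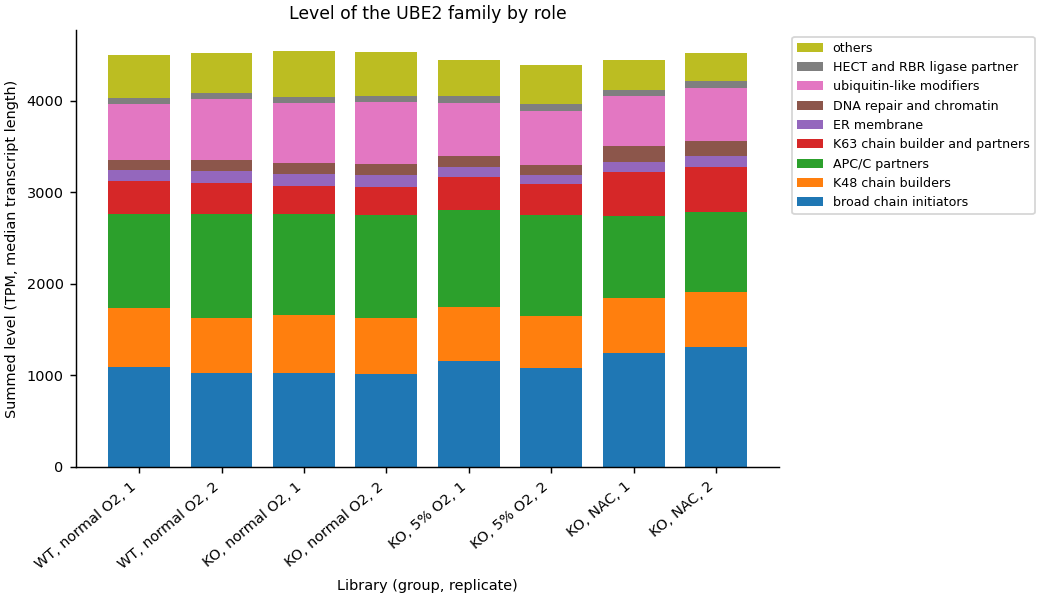
Summed level per transcript length (TPM, median transcript length) of the family members in each of the 8 libraries, stacked by role. The total runs from 4388 to 4545 TPM, and within it the initiators take 22.4% in KO and 28.9% in NAC replicate 2.

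Several members share sequence or position with other genes, and reads from them are uncertain. By default featureCounts ignores strand, and 41.6% of the exon bases of UBE2N lie opposite exons of NUDT4, 33.8% of those of UBE2E1 opposite NKIRAS1 and 17.8% of those of UBE2A opposite other genes. On the same strand, UBE2V1 shares 43.2% of its exon bases with the PEDS1-UBE2V1 readthrough gene. Of the 31-base words of UBE2V1, 49.9% occur elsewhere in the genome, as do 47.2% of those of UBE2E3 and 35.5% of those of UBE2M. The shares were 30.8% for UBE2S and 22.1% for UBE2D3. In all, 17 members reach 10% on either measure, and their values below carry that uncertainty, among them UBE2A, UBE2C, UBE2D3, UBE2D4, UBE2E1, UBE2E3, UBE2F, UBE2G1, UBE2G2, UBE2H, UBE2L3, UBE2L5, UBE2M, UBE2N, UBE2S and UBE2V1. How many reads were lost or gained in this way was not tested.

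The promoters shown next belong to the members called at 5% O2 (UBE2E1, UBE2N and UBE2D3) and to those with the next largest rise (UBE2T) and the largest fall (UBE2O) with NAC among members whose promoter is in the reference and can be printed here. They were searched on both strands for ACGTG, the core of the hypoxia response element, and for TGACNNNGC, the core of the antioxidant response element. ACGTG is present in 6 of 38 promoters of the family (15.8%) and in 21.4% of all 35116 promoters, and TGACNNNGC in 5 of 38 (13.2%) and in 13.3% of all promoters. By gene, ACGTG is present in 5 of 26 members and 6790 of 27305 genes, and TGACNNNGC in 5 of 26 members and 4384 of 27305 genes. A match alone describes the sequence only. Promoters of UBE2B, UBE2C, UBE2H, UBE2Q1 and UBE2L5 are among those missing from the reference table. Sequences are from RefSeq (GRCh38.p14), 300 bases around the transcription start, written in the direction of the gene in lower case, with matches to either core, or to its reverse complement, in capitals. UBE2E1 has 2 starts in the table, neither with a match, and the promoter of the upstream start is at chr3:23805705-23806004 (+), that of UBE2N at chr12:93441898-93442197 (-), and that of UBE2T at chr1:202341887-202342186 (-). None of the 3 shown has a match.
UBE2E1: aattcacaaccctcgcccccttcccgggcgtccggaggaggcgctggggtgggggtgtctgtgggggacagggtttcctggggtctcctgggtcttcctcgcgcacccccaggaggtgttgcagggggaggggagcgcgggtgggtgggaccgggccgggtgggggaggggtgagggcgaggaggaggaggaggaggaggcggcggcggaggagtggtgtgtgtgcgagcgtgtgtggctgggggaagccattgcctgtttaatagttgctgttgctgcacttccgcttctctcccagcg
UBE2N: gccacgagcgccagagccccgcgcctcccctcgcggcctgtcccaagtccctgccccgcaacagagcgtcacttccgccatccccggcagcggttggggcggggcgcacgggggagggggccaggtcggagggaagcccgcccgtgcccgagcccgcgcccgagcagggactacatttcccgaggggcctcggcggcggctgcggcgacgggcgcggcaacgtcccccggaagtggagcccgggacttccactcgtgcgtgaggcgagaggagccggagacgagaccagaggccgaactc
UBE2T: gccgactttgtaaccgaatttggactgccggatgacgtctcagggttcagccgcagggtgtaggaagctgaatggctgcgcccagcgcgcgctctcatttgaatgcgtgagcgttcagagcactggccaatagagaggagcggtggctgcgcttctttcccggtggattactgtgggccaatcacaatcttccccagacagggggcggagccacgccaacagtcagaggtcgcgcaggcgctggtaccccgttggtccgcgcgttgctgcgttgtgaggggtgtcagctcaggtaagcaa
Of the 6 UBE2D3 starts in the table, 1, at chr4:102827502-102827801 (-), has a pair of matches to the hypoxia core, once on each strand, and the others have none. UBE2O, at chr17:76453103-76453402 (-), has a single match, on the strand opposite the gene.
UBE2D3: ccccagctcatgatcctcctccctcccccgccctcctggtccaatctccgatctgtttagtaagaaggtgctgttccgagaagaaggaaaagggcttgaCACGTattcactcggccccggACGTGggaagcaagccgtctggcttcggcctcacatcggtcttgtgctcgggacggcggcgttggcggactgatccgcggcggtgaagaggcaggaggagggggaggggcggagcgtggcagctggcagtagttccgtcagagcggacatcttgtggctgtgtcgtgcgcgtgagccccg
UBE2O: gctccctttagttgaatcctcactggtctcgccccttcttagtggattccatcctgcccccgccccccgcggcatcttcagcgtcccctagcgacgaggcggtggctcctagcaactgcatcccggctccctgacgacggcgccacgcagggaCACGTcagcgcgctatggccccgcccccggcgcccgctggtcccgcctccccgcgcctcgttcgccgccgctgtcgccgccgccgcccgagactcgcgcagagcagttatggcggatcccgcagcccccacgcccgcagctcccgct

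The comparison of KO with WT at normal O2 uses the 2 KO and the 2 WT libraries grown without treatment. The KO libraries serve again in the comparisons with NAC and with 5% O2, so results of those comparisons are not independent of this one and are given side by side. No member of the family passed edgeR's quasi-likelihood test at an adjusted p under 0.05: 0 of 32 were higher in KO (1.34% of all genes tested) and 0 were lower (0.622%). At an unadjusted p under 0.05, 1 member was higher (9.50% of all genes) and 2 were lower (8.12%). DESeq2 called 0 higher (4.06% of the genes it tested) and 1 lower, UBE2N (2.37%). With a fold change rule, an absolute log2 fold change over 1 together with an unadjusted p under 0.05, there were 0 members (2.57% of all genes). Median log2 fold change was -0.02 over the members and -0.00 over all genes tested, and 12 of 32 members had a positive value.

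UBE2N measured 212 and 213 CPM in WT and 171 and 178 CPM in KO. Both KO values lie below both WT values, and the replicates are close together. The means were 175 ± 4.61 CPM in KO and 213 ± 0.907 CPM in WT (n = 2 each), a log2 fold change of -0.28 (SE 0.08, adjusted p = 0.108). With the dependence on transcript length and GC content removed, the same test gave -0.19 (SE 0.07, adjusted p = 0.205). Leaving out NAC replicate 1 or NAC replicate 2 brings the number of members called lower from 0 to 1 each time, and the member is UBE2N. Over all genes the share called lower went from 0.622% to 2.95% and 2.89% in these fits. UBE2D3 was 390 and 366 CPM in WT and 330 and 339 CPM in KO, again without overlap (log2 fold change -0.18, adjusted p = 0.277). In the other direction, UBE2G2 measured 89.6 and 77.9 CPM in WT and 103 and 98.1 CPM in KO. Its KO values are the higher ones, and the log2 fold change was 0.26 (SE 0.09, adjusted p = 0.17). Most members are flat: UBE2E3 was 81.6 and 83.9 CPM in WT and 81.9 and 83.9 CPM in KO, and UBE2J2 was 91.9 and 101 CPM in WT and 92.7 and 99.5 CPM in KO. In both genes the groups overlap.

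The comparison of KO with NAC against KO at normal O2 is where the family differs most. More members passed the test upward than downward. The roles used below were assigned with earlier results known, and no role was tested as a group. The study describes DMSO as the vehicle in its NAC experiments, and the labels of these libraries name none. The KO libraries at normal O2 therefore serve as the control. In the study's scheme, treatment runs over passages before RNA-seq, and the labels give no passage or time in culture. A difference in time in culture thus cannot be told apart from a difference with NAC. By edgeR's quasi-likelihood test at an adjusted p under 0.05, 14 of 32 members were higher with NAC (23.8% of all genes tested) and 4 were lower (20.8%). By the fold change rule there was 1 member, UBE2W (9.02% of all genes). Median log2 fold change was 0.21 over the members and 0.02 over all genes tested, with 22 of 32 members positive. Leaving out each library in turn gave 12 to 15 members higher and 3 to 5 lower, with 15.9% to 24.5% of all genes higher and 14.5% to 21.2% lower.

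**Figure D2:**
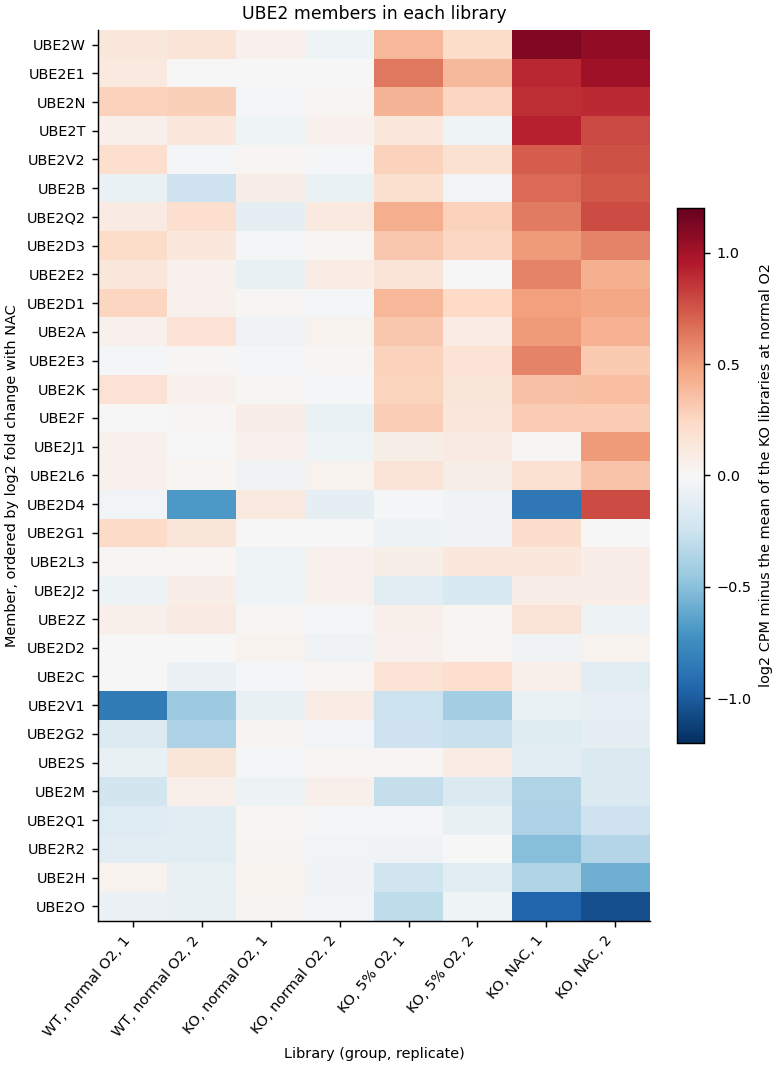
Heat map of log2 CPM of 31 of the 32 tested members (vertical axis, ordered by log2 fold change with NAC) in the 8 libraries (horizontal axis), after subtracting each member's mean in KO at normal O2. UBE2W, UBE2E1, UBE2N and UBE2T stand out as higher in both NAC libraries and UBE2O as lower.

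Among the broad chain initiators, 6 of 8 rose with NAC (23.8% of all genes), and the median log2 fold change of the 8 was 0.50. After removal of the length and GC trend, 3 were higher and 2 lower (median 0.20), beside 18.8% and 15.6% of all genes. UBE2E1 measured 101 and 93.1 CPM in WT, 94.2 and 93.1 in KO, 145 and 122 in KO at 5% O2, and 175 and 190 CPM with NAC. The NAC values are the highest, the 5% O2 values lie between, and WT and KO are alike. Its log2 fold change with NAC was 0.96 (SE 0.10, adjusted p = 3.0e-05). UBE2W measured 25.7 and 26.1 CPM in WT, 24.3 and 22.5 in KO, 30.8 and 27.2 at 5% O2, and 50.5 and 48.8 CPM with NAC. Its NAC libraries are far above the rest (log2 fold change 1.08, SE 0.11, adjusted p = 2.4e-05). UBE2D3 measured 390 and 366 CPM in WT, 330 and 339 in KO, 420 and 397 at 5% O2, and 476 and 504 CPM with NAC. The order of the groups is NAC, 5% O2, WT, KO without overlap, and the log2 fold change with NAC was 0.55 (SE 0.08, adjusted p = 1.9e-04).

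UBE2E3 was 125 and 103 CPM with NAC against 81.9 and 83.9 CPM in KO (log2 fold change 0.46, adjusted p = 0.00327). UBE2E2 was 54.0 and 47.9 CPM with NAC against 33.5 and 38.0 CPM in KO (log2 fold change 0.51, adjusted p = 0.00294). Both rose, and UBE2E2 without KO replicate 1 had an adjusted p of 0.0503 (range over its alternatives 1.9e-04 to 0.081). UBE2D1 rose as well, with 65.9 and 64.7 CPM against 47.3 and 46.3 CPM (log2 fold change 0.48, adjusted p = 0.00239). With the length and GC trend removed its direction turned, and it was called lower (log2 fold change -0.30, adjusted p = 0.0201). UBE2D2, close to UBE2D3 in sequence and function, measured 154 and 163 CPM with NAC and 164 and 154 CPM in KO. These UBE2D2 values overlap and the log2 fold change was -0.00. UBE2D4 is barely expressed, with 1.2 and 3.74 CPM with NAC and 2.36 and 2.02 CPM in KO, and its NAC replicates lie on both sides of KO.

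Of the K63 builder and its partners, UBE2N and UBE2V2 rose with NAC, 2 of 3 beside 23.8% of all genes. After removal of the length and GC trend, the log2 fold change was 0.33 for UBE2N, still called, and -0.02 for UBE2V2, not called. UBE2N measured 171 and 178 CPM in KO and 323 and 326 CPM with NAC, a log2 fold change of 0.89 (SE 0.08, adjusted p = 1.9e-05). UBE2V2 measured 74.0 and 63.2 CPM in WT, 65.2 and 63.3 in KO, 77.9 and 73.0 at 5% O2, and 106 and 109 CPM with NAC. For both genes the NAC libraries are the highest and do not overlap any other group, and the log2 fold change of UBE2V2 was 0.75 (SE 0.10, adjusted p = 1.0e-04). UBE2V1, which shares exon bases with the readthrough gene, was 1.71 and 1.94 CPM in KO and 1.72 and 1.70 CPM with NAC. The readthrough gene had 0 counts in every library. Whether reads in shared sequence were left out of the counts was not tested. These low values therefore do not show that UBE2V1 is near absent, and they are too low to say more. NUDT4, opposite UBE2N, measured 80.3 and 76.4 CPM in KO and 96.4 and 90.0 CPM with NAC (log2 fold change 0.25, adjusted p = 0.0579). NKIRAS1, opposite UBE2E1, measured 4.50 and 4.74 CPM in KO and 7.86 and 7.85 CPM with NAC (log2 fold change 0.77, adjusted p = 0.0063). Both neighbours have fewer counts than the member on the other strand.

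All 3 members with roles in DNA repair and chromatin rose, beside 23.8% of all genes. With the length and GC trend removed 1 of them, UBE2T, is still called, beside 18.8% of all genes. UBE2T measured 44.4 and 46.4 CPM in WT, 41.1 and 43.9 in KO, 46.4 and 41.0 at 5% O2, and 81.3 and 73.6 CPM with NAC. The NAC libraries are above all others, and the log2 fold change against KO was 0.87 (SE 0.10, adjusted p = 5.3e-05). UBE2B went from 17.8 and 16 CPM in KO to 27.1 and 28.2 CPM with NAC (log2 fold change 0.71, SE 0.13, adjusted p = 0.00108). UBE2A, its close relative, went from 47.4 and 50.3 CPM to 69.8 and 65.4 CPM (log2 fold change 0.47, adjusted p = 0.00348). In both genes the NAC values are above KO without overlap.

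Of the K48 chain builders, 1 of 4 was higher and 1 of 4 lower, beside 23.8% and 20.8% of all genes. After removal of the length and GC trend, 0 were higher and 1, UBE2K, was lower (18.8% and 15.6% of all genes). UBE2K rose from 209 and 205 CPM in KO to 263 and 266.5 CPM with NAC (log2 fold change 0.36, adjusted p = 0.00454). With the trend removed its direction turned (log2 fold change -0.24, adjusted p = 0.0205). Without KO replicate 2 its adjusted p was 0.051, in a range of 0.00111 to 0.629 over the alternatives. UBE2R2 fell from 141 and 136 CPM to 97.5 and 108 CPM (log2 fold change -0.43, adjusted p = 0.0017). CDC34, the relative of UBE2R2 outside the symbol rule, measured 158 and 169 CPM in KO and 126 and 127 CPM with NAC, and it fell too (log2 fold change -0.37, adjusted p = 0.0108). With the length and GC trend removed, the log2 fold change was -0.03 for CDC34 and -0.04 for UBE2R2. UBE2G1 was 159.5 and 161 CPM in KO and 186 and 161 CPM with NAC, and UBE2G2 was 103 and 98.1 CPM in KO and 90.7 and 92.4 CPM with NAC. Neither passed, with log2 fold changes of 0.11 and -0.14.

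Neither partner of the anaphase-promoting complex passed. UBE2S measured 433 and 510 CPM in WT, 457 and 464 in KO, 465 and 489 at 5% O2, and 418 and 408.5 CPM with NAC. NAC has the lowest UBE2S values, but the spread between the WT replicates is wider than the step from KO to NAC (log2 fold change -0.16, adjusted p = 0.183). UBE2C measured 187 and 193.5 CPM in KO and 198 and 173 CPM with NAC, with overlap. The members in the membrane of the endoplasmic reticulum did not pass either: UBE2J2 was 92.7 and 99.5 CPM in KO and 102 and 101.5 CPM with NAC. UBE2J1 was 28.8 and 26.8 CPM in KO and 28.1 and 39.6 CPM with NAC, a gap between NAC replicates larger than any difference between groups (log2 fold change 0.28, adjusted p = 0.138).

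Among members that carry ubiquitin-like modifiers, 1 of 5 was higher, beside 23.8% of all genes. With the length and GC trend removed, 2 of 5 were higher, beside 18.8% of all genes. UBE2L6, the ISG15 enzyme, measured 55.5 and 59.1 CPM in KO and 65.0 and 72.6 CPM with NAC. The groups do not overlap, yet the difference is small (log2 fold change 0.26, adjusted p = 0.0415) and the call ends in 12 of 18 alternatives. These include the removal of any library except NAC replicate 1: the adjusted p was 0.0588 without WT replicate 1, 0.0961 without WT replicate 2, 0.239 without KO replicate 1, 0.1 without KO replicate 2, 0.0604 and 0.0597 without 5% O2 replicates 1 and 2, and 0.176 without NAC replicate 2. Over all alternatives for UBE2L6 the range was 0.00162 to 0.239. The NEDD8 enzymes UBE2M (115 and 125 CPM in KO, 93.7 and 106 CPM with NAC) and UBE2F (19.9 and 17.9 CPM in KO, 23.3 and 23.3 CPM with NAC) lean in opposite directions without passing, at adjusted p = 0.0762 and 0.0613. UBE2Z, which takes ubiquitin or FAT10 from UBA6, was 116 and 114 CPM in KO and 128 and 111 CPM with NAC. UBE2L3, which serves HECT and RBR ligases, was 188 and 202 CPM in KO and 213.5 and 207 CPM with NAC, a log2 fold change of 0.10.

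Of the 4 remaining members tested, 3 were lower and 1 was higher, beside 20.8% and 23.8% of all genes. After removal of the length and GC trend, 2 were lower and 0 higher (15.6% and 18.8% of all genes). UBE2O measured 144 and 142 CPM in WT, 154 and 148 in KO, 123 and 146 at 5% O2, and 78.3 and 72.8 CPM with NAC. It fell with NAC (log2 fold change -1.0, SE 0.10, adjusted p = 2.4e-05), far from every other group. UBE2H measured 152 and 139 CPM in WT, 153 and 143 in KO, 125 and 136 at 5% O2, and 115 and 98.7 CPM with NAC. UBE2H is lowest with NAC (log2 fold change -0.47, adjusted p = 0.00258). UBE2Q1 fell from 53.2 and 51.4 CPM to 40.4 and 44.1 CPM (log2 fold change -0.31, adjusted p = 0.0185). UBE2Q2 rose from 24.4 and 28.7 CPM to 40.6 and 45.5 CPM (log2 fold change 0.70, SE 0.12, adjusted p = 5.9e-04). With the length and GC trend removed neither was called (log2 fold change -0.24 for UBE2Q1 and 0.23 for UBE2Q2). The call of UBE2Q1 ends without KO replicate 1 (adjusted p = 0.121), KO replicate 2 (0.0733) or NAC replicate 1 (0.0834), in a range of 0.00704 to 0.141 over its alternatives.

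**Figure D3:**
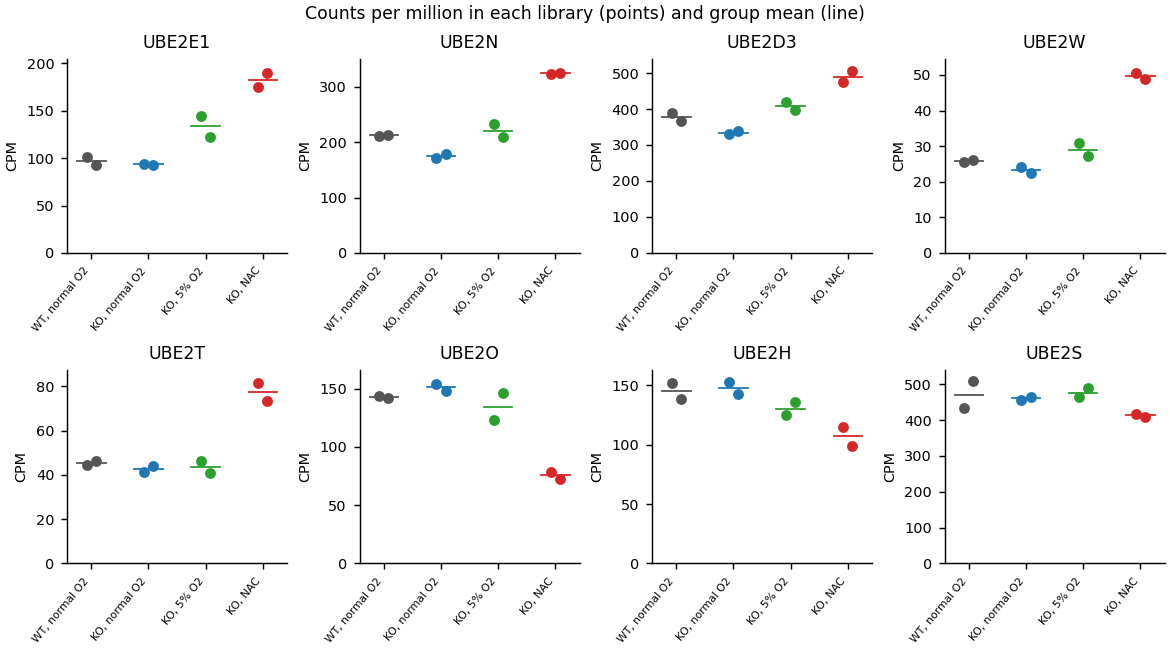
CPM (vertical axis) of 8 members in the 4 groups (horizontal axis), with a point for each library and a line at the group mean. UBE2N goes from 171 and 178 CPM in KO to 323 and 326 CPM with NAC, UBE2O goes from 154 and 148 CPM to 78.3 and 72.8 CPM, and UBE2S overlaps between WT and KO and between WT and 5% O2.

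The 9 mesenchymal or fibroblast markers checked in each library summed to 573 and 584 CPM in WT, 603 and 629 in KO, 514.5 and 542 at 5% O2, and 946 and 549 CPM with NAC. NAC replicate 1 stands apart. THY1 is the most abundant of them in every library, at 476 CPM in NAC replicate 1 and 399 CPM in NAC replicate 2, so most of that gap comes from the other markers. None of the 9 is at 0 in NAC replicate 1, whereas COL3A1, DCN and LUM are at 0 in NAC replicate 2 and in both KO libraries at normal O2. Without NAC replicate 1, 15 members were higher with NAC (21.2% of all genes) and 3 were lower (19.7%), and 17 of the 18 called with all libraries kept their call and direction. Whether the mesenchymal transcript in that library affects the values of single members was not tested. Markers of human embryonic stem cells summed to 6664 and 6674 CPM in WT, 6636 and 6407 in KO, 6451 and 6321 at 5% O2, and 6059 and 5581 CPM with NAC, high throughout. With NAC 3 of these 9 were higher and 3 lower, beside 23.8% and 20.8% of all genes. After removal of the length and GC trend, 2 were higher and 3 lower (18.8% and 15.6% of all genes). As counted, DNMT3B (log2 fold change -0.97), L1TD1 (-0.68) and NANOG (-0.31) were lower, while DPPA4 (0.70), ZFP42 (0.61) and TDGF1 (0.26) rose.

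Base composition tracks the NAC values. Over the members, the log2 fold change with NAC had a Spearman correlation of -0.71 with transcript GC content (n = 32), and over all genes with a reference transcript it was -0.48 (n = 15281). The corresponding values were -0.57 and -0.32 for 5% O2 and 0.52 and 0.14 for KO against WT. Members have a median GC content of 45.6% and all genes 49.3%. UBE2D1 (32.9% GC), UBE2W (34.9%) and UBE2V2 (36.5%) are the most AT-rich members and rose. UBE2O (58.3%) fell, while the members still richer in GC, UBE2S (58.6%), UBE2M (59.4%) and UBE2J2 (59.7%), were not called. A trend of this kind can come from library preparation or from the cells, and its source was not tested.

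With the dependence on length and GC content fitted and subtracted in every library, 9 members were higher with NAC (18.8% of all genes) and 5 were lower (15.6%), with 8 members called in the same direction as without the correction. UBE2E1 (log2 fold change 0.57), UBE2W (0.47), UBE2T (0.46), UBE2N (0.33), UBE2E3 (0.28) and UBE2L6 (0.40) were still higher, and UBE2H (-0.69) and UBE2O (-0.60) still lower. UBE2L3 (0.40) and UBE2J2 (0.31) were among those that joined the higher members and UBE2D2 (-0.37) the lower ones. UBE2D1 changed sides, from 0.48 to -0.30 (adjusted p = 0.0201, range over alternatives 1.8e-04 to 0.0436), as did UBE2K, from 0.36 to -0.24 (adjusted p = 0.0205, range 0.00111 to 0.629). UBE2V2 (-0.02), UBE2D3 (0.13), UBE2B (0.22), UBE2Q2 (0.23), UBE2A (0.20), UBE2E2 (0.27), UBE2R2 (-0.04) and UBE2Q1 (-0.24) were no longer called. In DNA repair and chromatin, 1 of 3 was then higher (median 0.22). After the correction the median of the members was 0.11 and of all genes 0.03. With the trend on GC content alone removed, a choice made after seeing the data, 14 members were higher and 5 lower (21.2% and 17.2% of all genes), and 14 of the 18 called members kept their call and direction. UBE2D1, UBE2K, UBE2V2 and UBE2Q1 did not. Which calls remain thus depends on the trend removed, while those for UBE2E1, UBE2E3, UBE2N, UBE2T, UBE2W, UBE2H and UBE2O did not end in any of the 18 alternatives. For KO against WT, the corrected fit gave 0 higher (1.13% of all genes) and 0 lower (0.804%).

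**Figure D4:**
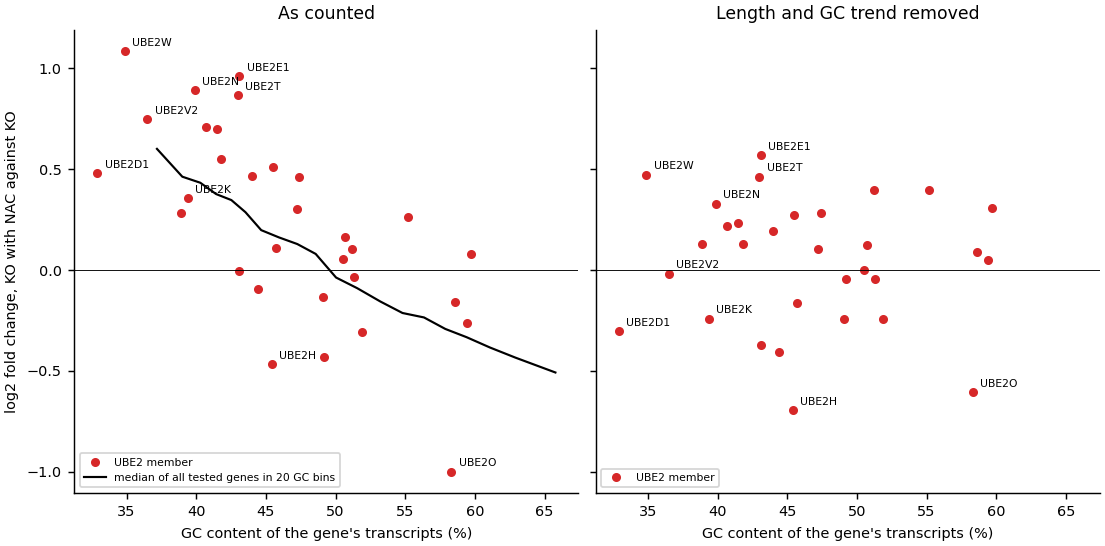
Log2 fold change with NAC (vertical axis) against transcript GC content in percent (horizontal axis), a point for each of 31 members, as counted (left, with the median of all tested genes as a black line) and with the length and GC trend removed (right). As counted, log2 fold change declines with GC content, with wide scatter around the line (Spearman correlation over all 32 tested members -0.71), and after removal the correlation is -0.03.

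KO at 5% O2 differs less from KO at normal O2. Only 3 members passed edgeR's quasi-likelihood test, all of them higher, and each also rose with NAC. Higher at 5% O2 were 3 of 32 members (3.68% of all genes tested) and lower were 0 (4.13%). At an unadjusted p under 0.05, 8 members were higher (1971 of all 15916 genes) and 1 was lower (12.4% of all genes). DESeq2 called 4 members higher (1067 of the 11881 genes it tested) and 0 of 30 lower (8.67% of the genes it tested). By the fold change rule there were 0 members (2.02%). Median log2 fold change was 0.08 over the members and -0.00 over all genes.

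UBE2E1 stood at 145 and 122 CPM at 5% O2 and at 94.2 and 93.1 CPM in KO at normal O2. The replicates at 5% O2 differ from each other, and both exceed KO (log2 fold change 0.51, SE 0.10, adjusted p = 0.0162). UBE2N was 232 and 208.5 CPM at 5% O2 against 171 and 178 CPM in KO, a range that includes its WT values (log2 fold change 0.33, SE 0.08, adjusted p = 0.0337). UBE2D3 was 420 and 397 CPM against 330 and 339 CPM (log2 fold change 0.29, SE 0.08, adjusted p = 0.0484). Like the WT values, those of UBE2N and UBE2D3 at 5% O2 are above KO at normal O2. All 3 calls rest on few libraries. The number of higher members was 0 without KO replicate 1, 0 without KO replicate 2 and 0 without 5% O2 replicate 1. It was 1, UBE2E1, without WT replicate 1, WT replicate 2 or 5% O2 replicate 2, and 5 without NAC replicate 1 or NAC replicate 2, with UBE2D1 and UBE2Q2 added. Calls over all genes moved alike: 3.68% higher with all libraries, 0.175% without KO replicate 1, 0.254% without KO replicate 2, 0.188% without 5% O2 replicate 1, and 8.04% and 7.89% without NAC replicates 1 and 2. Over all alternatives the adjusted p ran from 5.5e-05 to 0.239 for UBE2E1, from 0.00257 to 0.31 for UBE2N and from 0.00831 to 0.338 for UBE2D3. With the length and GC trend removed, 1 member was higher, UBE2E1 (3.08% of all genes), and 0 were lower (1.77%).

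UBE2G2 was the member nearest to a lower call, at 84.9 and 83.6 CPM at 5% O2 and 103 and 98.1 CPM in KO. The replicates are tight and do not overlap (log2 fold change -0.26, adjusted p = 0.113), and the 5% O2 values fall within the range of the WT libraries. UBE2T, which rose with NAC, was 46.4 and 41.0 CPM at 5% O2 and 41.1 and 43.9 CPM in KO, with overlap. UBE2O replicates at 5% O2 lie apart, at 123 and 146 CPM, and the gene did not pass.

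**Figure D5:**
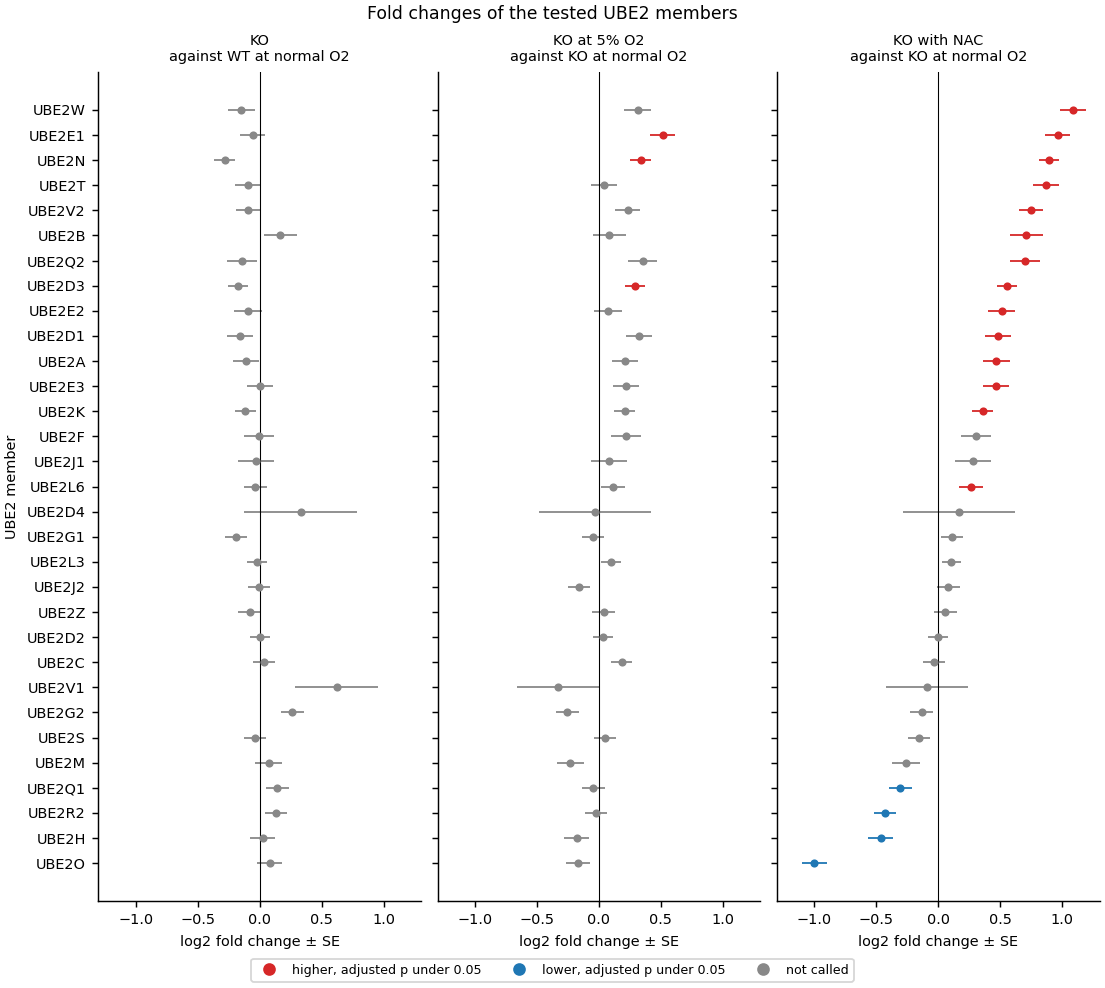
Log2 fold change with its standard error (horizontal axis) for 31 of the 32 tested members (vertical axis), for KO against WT, 5% O2 against normal O2 in KO, and NAC against untreated KO. Red marks members called higher, blue lower and grey not called: 0 in KO against WT, 3 higher at 5% O2, and 14 higher and 4 lower with NAC.

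NAC against 5% O2 within KO compares the treated libraries directly. The study describes culture before RNA-seq both in hours, for low O2, and in passages, so a difference in the length of exposure cannot be told apart from a difference between the treatments. It uses neither the WT nor the untreated KO libraries as a group. Higher with NAC than at 5% O2 were 9 of 32 members (15.5% of all genes tested) and lower were 2 (13.6%), with 0 by the fold change rule (4.42%). Other scalings gave 8 higher and 4 lower (RLE), 8 and 4 (upper quartile) and 8 and 6 (DESeq2), where UBE2H and UBE2Q1 joined the lower members, and in DESeq2 also UBE2C and UBE2S. All genes tip the same way under these scalings, to 14% higher and 14.7% lower with RLE and upper quartile, and to 11.1% and 11.6% with DESeq2. These DESeq2 shares are over 21141 genes, whereas those given for the other comparisons are over the genes it tested. Median log2 fold change was 0.16 over the members and 0.04 over all genes, with 24 of 32 members positive.

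UBE2T (log2 fold change 0.82, adjusted p = 4.5e-04) and UBE2W (0.77, adjusted p = 6.7e-04) differ most upward, and neither passed at 5% O2 against normal O2. UBE2N was 323 and 326 CPM with NAC and 232 and 208.5 CPM at 5% O2, without overlap (log2 fold change 0.56, adjusted p = 9.0e-04). With the length and GC trend removed UBE2N is not called (0.18, adjusted p = 0.106, range over its alternatives 5.1e-08 to 0.138). UBE2E1 at 175 and 190 CPM with NAC also exceeds its 145 and 122 CPM at 5% O2 (log2 fold change 0.45, adjusted p = 0.00692). UBE2B (0.62), UBE2V2 (0.51), UBE2E2 (0.44), UBE2Q2 (0.35) and UBE2D3 (0.26) complete the higher members. The lower ones were UBE2O (-0.83, adjusted p = 3.9e-04) and UBE2R2, at 97.5 and 108 CPM with NAC and 134 and 138 CPM at 5% O2 (log2 fold change -0.40, adjusted p = 0.0055).

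Without 5% O2 replicate 2, the members that differ between NAC and 5% O2 shrink to 3 higher (UBE2T, UBE2W and UBE2N) and 1 lower (UBE2O). Over all genes the shares went from 15.5% to 3.83% higher and from 13.6% to 4.31% lower. Leaving that library out gave adjusted p = 0.0989 for UBE2E1 (range over alternatives 2.1e-04 to 0.21), 0.0773 for UBE2B (5.4e-04 to 0.108), 0.0531 for UBE2V2 (4.3e-05 to 0.976), 0.144 for UBE2E2 (0.00293 to 0.144) and 0.0588 for UBE2R2 (5.5e-05 to 0.154). UBE2E2 also loses its call without NAC replicate 1 (adjusted p = 0.0562). UBE2D3 loses its call in 10 of 18 alternatives (adjusted p 0.0208 to 0.922), among them the removal of WT replicate 2 (0.0502), KO replicate 1 (0.06), KO replicate 2 (0.0598), 5% O2 replicate 1 (0.0638), 5% O2 replicate 2 (0.193) and NAC replicate 2 (0.0785). UBE2Q2 loses it in 14 of 18 (0.0306 to 0.916), among them the removal of WT replicate 1 (0.0673), WT replicate 2 (0.0852), KO replicate 1 (0.0619), KO replicate 2 (0.0643), 5% O2 replicate 1 (0.081), 5% O2 replicate 2 (0.291) and NAC replicate 2 (0.147). The lower members numbered 4 without WT replicate 2, with UBE2H and UBE2S added, and 4 without NAC replicate 1, with UBE2H and UBE2C added. With the length and GC trend removed, UBE2T (0.55), UBE2J2 (0.36) and UBE2W (0.34) were among the 4 higher members (10% of all genes). UBE2O (-0.61), UBE2H (-0.43), UBE2D1 (-0.38), UBE2D2 (-0.29) and UBE2K (-0.26) were the 5 lower ones (10.4%). UBE2T, UBE2W and UBE2O did not lose their call in any of the 18 alternatives.

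Around the family, genes at the steps before and after conjugation were counted in the same fit. None of 8 E1 enzymes tested was called between KO and WT (median log2 fold change -0.12), beside 1.34% of all genes higher and 0.622% lower. With NAC 4 of the 8 were higher and 2 lower (median 0.39). For the NAC counts in this paragraph, all genes had 23.8% higher and 20.8% lower, or 18.8% and 15.6% with the trend removed. UBA1, the main ubiquitin E1, fell with NAC (log2 fold change -0.33, adjusted p = 0.00488), as did SAE1 (-0.30, adjusted p = 0.00664), a subunit of the SUMO E1. Its partner UBA2 (0.93) and the NEDD8 E1 subunits UBA3 (0.98) and NAE1 (1.02) rose. UBE2M, which receives NEDD8 from UBA3 and NAE1, did not pass. At 5% O2, 2 of the 8 were higher (3.68% of all genes), UBA2 (0.45) and NAE1 (0.39), or 1 with the trend removed (3.08%). With the length and GC trend removed, 4 E1 enzymes were higher and 1 lower with NAC (median 0.13). Of 9 E2 enzymes and E2 variants with other names, 6 were higher with NAC and 2 lower (median 0.69), the latter being BIRC6 (-1.03) and CDC34. With the trend removed, 4 were higher and 1 lower (median 0.42). BIRC6, like UBE2O a large E2 enzyme with ligase activity, was lower at 5% O2 as well (-0.53). At 5% O2, 1 of these 9 was higher, UFC1 (0.52), and 1 was lower, beside 3.68% and 4.13% of all genes. Among 11 genes for ubiquitin and ubiquitin-like modifiers, 8 were higher with NAC and 0 lower (median 0.50), or 7 and 0 (median 0.28) with the trend removed. At 5% O2, 4 of these genes were higher (3.68% of all genes, median 0.30), or 2 with the trend removed (3.08%).

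Lists related to single members give context for them. For UBE2C and UBE2S, 6 subunits and activators of the anaphase-promoting ligase had 2 higher and 2 lower with NAC (median 0.16), or 2 and 1 (median -0.02) with the trend removed. The 14 genes of G2 and M phase had 6 higher and 2 lower (median 0.18), or 6 and 3 (median 0.20) with the trend removed. In KO against WT, 1 of those 14 was higher (1.34% of all genes), MKI67 (0.68), and the median was -0.09. For UBE2L6, 8 interferon-induced genes tested had 2 higher and 1 lower with NAC (median 0.34; 3 and 0, median 0.44, with the trend removed) and 0 either way at 5% O2 (median 0.04). Beside these, all genes tested had 3785 higher and 3315 lower with NAC and a median of 0.02. With the trend removed, 18.8% of all genes were higher with NAC and 15.6% lower. At 5% O2, 3.68% were higher and 4.13% lower as counted.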

How the data were processed

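The counts per gene deposited by the authors were used as given. The submitters' processing notes name FastQC 0.11.9, HISAT2, featureCounts and hg38. The 8 libraries of the table were analysed. Another 4 WT libraries, treated with NAC or grown at 5% O2, were not used here. Genes were kept by edgeR's filterByExpr (minimum count 10), scaled by TMM and compared by edgeR's quasi-likelihood test (edgeR 4.0.16 in R 4.3.3) in 1 fit with a term for each group and no block. P-values were adjusted by Benjamini-Hochberg over all 15916 genes, and a gene was called at an adjusted p under 0.05. The standard error (SE) was taken as the size of the log2 fold change over the root of its F statistic. The biological coefficient of variation was 13.7%, with 4 residual degrees of freedom.

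Alternatives were DESeq2 1.42.0, RLE and upper quartile scaling, other filters on low counts, only the libraries compared, the replicate number as a block, each library left out, and a smooth trend on length and GC content fitted per library with mgcv 1.9.3. The scripts were first run on simulated counts with known differences.

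Transcript lengths and GC content are from GENCODE v44, the length being the median over transcripts of a gene. Members follow a symbol rule. The members, the roles and the lists were chosen with earlier results of these data known. The lists are E1 enzymes, E2 enzymes and variants with other names, ubiquitin and ubiquitin-like genes, G2 and M phase, interferon-induced, and anaphase-promoting ligase. Members named with values are those called in any comparison, and at least 1 for each role.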

Additional observations from a re-analysis of the deposited data

How the results depend on the processing

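Counts of members were recomputed under 20 alternatives, 8 of which leave out a library. In KO against WT the lower count went from 0 to 1 with DESeq2 (2.37% of the genes it tested) and with only the libraries compared (2.49%).

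With NAC against KO, 9 members were higher with the length and GC trend removed (18.8% of all genes). With the members of shared sequence left out, a choice made after seeing the data, 9 of 16 were higher. The fold change rule gave 1 higher and 0 lower (9.02% of all genes in either direction). UBE2K (-0.24, and -0.049 with GC alone), UBE2D1 (-0.30, and -0.25 with GC alone) and UBE2V2 (-0.018) reversed sign after trend removal.

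At 5% O2, only the libraries compared gave 5 higher and 1 lower (9.53% and 10% of all genes). The count of higher members was 1 with the trend removed (3.08% of all genes) and 1 with GC alone (4.13%), chosen after seeing the data. It was 0 by the fold change rule (2.02% in either direction) and 0 with shared sequence left out.

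For NAC against 5% O2, lower members numbered 6 with DESeq2 (11.6% of 21141 genes). There were 4 with RLE (14.7% of all genes tested) and 4 with upper quartile (14.7%). With at least 10 counts in every library there were 4 (16.1%), and with GC alone 4 (11.6%). Removal of the trend gave 4 higher and 5 lower, with UBE2D3 (-0.014) and UBE2V2 (-0.006) reversed, and the fold change rule gave 0 and 0. Over the libraries left out, 3 to 9 were higher and 1 to 4 lower.

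With the replicate block and the trend removed together, the block fit gave 9 higher with NAC (18.1% of all genes) and 0 higher at 5% O2 (2.1%). For NAC against 5% O2 the block fit gave 4 higher (8.92%) and 5 lower (9.77%). UBE2K (-0.24), UBE2D1 (-0.30), UBE2V2 (-0.018) and, against 5% O2, UBE2D3 (-0.015) and UBE2V2 (-0.006) were reversed in this block fit too. The pairing by replicate number was checked from same-numbered differences, whose correlations over 15916 genes were 0.03, -0.00, 0.08, -0.00, -0.01 and -0.02, and the cause was not tested.

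Summed TPM in WT, KO, 5% O2 and NAC was 3889, 4057, 3881 and 3767 with the longest transcripts and 3337, 3529, 3321 and 3186 with MANE Select.

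The design limits these results: 2 libraries per group give 4 residual degrees of freedom, nothing separates the clone from the genotype, and KO libraries are shared between comparisons. Treated WT cells were not analysed here, and whether a response to treatment depends on UBQLN1 was not tested. Members called in a comparison but not in another are not thereby different, except in the direct test of NAC against 5% O2. RNA levels were measured, and enzyme activity was not.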
